A study of Homo sapiens with 6 samples.

Results

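The genes described here encode the subunits of the proteasome and the proteins that help to assemble or restrain it. They are 40 genes chosen by name: the PSMA and PSMB genes of the 20S core, the PSMC and PSMD genes of the 19S cap, the assembly factors POMP and PSMG1 to PSMG4, and the inhibitor gene PSMF1. Of the 40, 36 were measured by a probe set annotated with that gene alone, out of 19775 genes measured in all. Where a gene had several probe sets, the one with the highest average signal stands for it. PSMA6 was annotated only on probe sets shared with PRORP, and PSMC5, PSMD7 and PSMD13 were not analysed here. The measured members were 13 genes of the 20S core, 14 of the 19S cap and 9 assembly or regulatory factors.

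The RNA came from SW-1990, an established human pancreatic adenocarcinoma line taken from a metastasis in the spleen. All cells had been infected with lentivirus that expresses a short hairpin RNA (shRNA) and kept in puromycin at 1 µg/ml for over 7 days. The hairpin was scrambled in the control group (sh-Ctrl) and aimed at PRLR, the prolactin receptor, in the other (sh-PRLR), and the sources used here do not give how many hairpins against PRLR were used. Each group had 3 Affymetrix arrays, given as biological replicates. Whether these came from separate infections is not stated, so p-values measure the spread between these arrays.

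The proteasome is the protease that degrades ubiquitin-tagged proteins in the cytosol and nucleus. Its 20S core is a barrel of alpha rings, which gate the entrance, and beta rings, which hold the peptide-cutting sites. The 19S cap recognises ubiquitin chains, removes them, and unfolds and feeds the substrate into the core by means of a ring of ATPases. When proteasome activity falls short, the transcription factor encoded by NFE2L1 is known to raise the subunit genes together, with small MAF proteins as partners, through antioxidant response elements in their promoters.

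Values are log2 levels per array, and changes are sh-PRLR minus sh-Ctrl. A gene is said to rise or fall where it passed limma with a variance that may depend on the signal level, at a Benjamini-Hochberg adjusted p of 0.05 over all genes. With limma's default variance 4 of 19775 genes passed (0.0202%), and none of the measured proteasome genes was among them, although 1, PSMD2, had an unadjusted p under 0.05 there. All 36 proteasome genes had a mean level of at least 10.58, against a median of 7.23 over all genes. At that level replicates lay close together, with a median SD of 0.066 over the proteasome genes against 0.21 over all genes.

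On these arrays PRLR itself had 7 probe sets, all of low signal and all with a lower mean in sh-PRLR, with changes between -0.18 and -1.82. Of the 7, 0 passed limma over all probe sets, and 2 had an unadjusted p under 0.05. Of the markers of duct-like epithelium, KRT18, KRT8, KRT19 and EPCAM had mean levels of 12.65 to 15.29. KRT7 had a mean level of only 7.64, and MUC1 and CEACAM6 lay below the median gene level. CDH1 and TSPAN8 had high mean levels of 13.91 and 14.09 and fell, with changes of -0.17 and -0.49. The markers of fibroblasts, leukocytes, endothelium, acinar cells and islets had mean levels of at most 7.89, and 0 of the 19 measured passed (limma with either variance setting; 2 of the 19 had an unadjusted p under 0.05 in both). The 18S ribosomal RNA signal was 12.78 to 13.39 in sh-Ctrl and 13.37 to 13.69 in sh-PRLR. The ACTB control probe set of the 3' end exceeded that of the 5' end by 3.05 to 3.36 in sh-Ctrl and 2.99 to 3.11 in sh-PRLR. For GAPDH the excess was 0.19 to 0.28 in sh-Ctrl and 0.092 to 0.20 in sh-PRLR. The part of these signals in the results was not tested.

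Proteasome genes hardly differed between the groups. Of the 36 measured, PSMG2 rose and PSMD2 fell, which is 5.56%. Over all genes 7.66% passed the same test, with 3.34% rising and 4.32% falling. Among the 4090 genes whose signal was at or above that of the dimmest proteasome gene 19.3% passed, with 10.2% rising and 9.1% falling, and 0.0244% passed with default variance. These are called genes of similar signal here, by this lower limit alone and without matching of levels. An unadjusted p under 0.05 was seen for 7 of the 36, against 20.3% of all genes and 40.1% of the genes of similar signal. The changes ran from -0.23 to 0.18 with a median of 0.015, against a median of -0.0013 over all genes, and 20 were above and 16 below 0. A change of 1.2-fold (0.26 on the log2 scale) was reached by 0 of the 36, against 15.4% of the 4090 genes of similar signal. Intervals were narrow: for 32 of the 36 the whole 95% interval of the change, not adjusted for the number of genes, lay within 1.2-fold in either direction (88.9%), against 54.4% of the genes of similar signal and 14.8% of all genes. Groups that did not overlap were seen for 9 of the 36, or 25.0%, against 25.8% over all genes and 44.2% of the genes of similar signal.

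**Figure D1:**
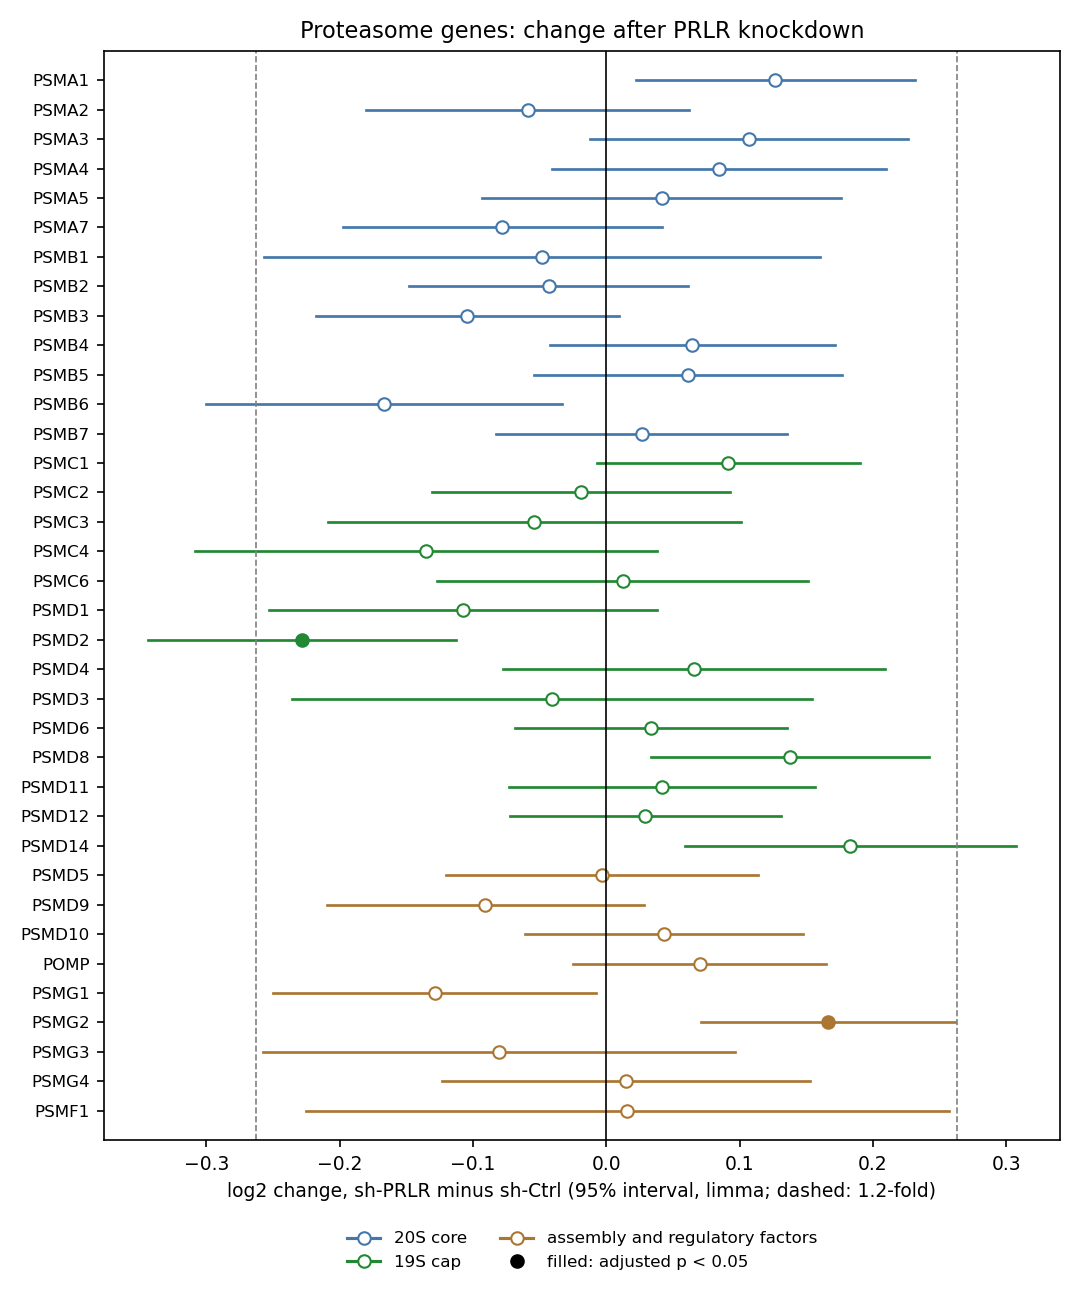
Log2 change of each of the 36 measured proteasome genes (sh-PRLR minus sh-Ctrl, 3 arrays each), with its 95% interval from limma as a horizontal bar; blue is the 20S core, green the 19S cap and brown the assembly and regulatory factors. Filled circles mark PSMD2 and PSMG2, which passed the adjusted threshold, and the dashed lines mark a 1.2-fold change, which no point crosses.

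The 20S core had a median change of 0.026 over 13 genes, and 0 of them passed limma with the level-dependent variance or with the default, while 2 and 0 had an unadjusted p under 0.05 in these fits. Averaged over its 13 genes, the core stood at 13.35, 13.39 and 13.45 in the sh-Ctrl arrays and at 13.43, 13.40 and 13.37 in the sh-PRLR arrays. The sh-PRLR arrays thus fell inside the range of the controls. The means were 13.40 ± 0.051 and 13.40 ± 0.027 (SD, n = 3 arrays), and their difference was 0.00091.

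In the alpha ring PSMA1 had the largest increase of the core. The sh-Ctrl arrays read 13.11, 13.07 and 13.12 for it, and the sh-PRLR arrays 13.16, 13.26 and 13.27. Every sh-PRLR array was above every control, but the change of 0.13 (95% interval 0.022 to 0.23) did not pass (limma adjusted p = 0.151). All 3 PSMA1 probe sets had a change in this direction. PSMA3 (0.11) and PSMA4 (0.085) were also above 0, and PSMA5 stood at 0.041. PSMA7 (-0.078) and PSMA2 (-0.059) were below 0, and for both genes the second probe set had the same sign. None of these 5 separated the groups, and their 95% intervals together ran from -0.20 to 0.23.

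The beta ring carries the catalytic subunits. PSMB5 encodes the subunit with chymotrypsin-like activity, PSMB6 the one with caspase-like activity and PSMB7 the one with trypsin-like activity. PSMB6 had the largest decrease of the core, at 12.75, 12.83 and 12.98 in the controls against 12.70, 12.66 and 12.71 after knockdown. The groups did not overlap, the control arrays were spread more widely, and the change of -0.17 (95% interval -0.30 to -0.034) did not pass (limma adjusted p = 0.136). PSMB5 read 12.64, 12.77 and 12.79 against 12.82, 12.77 and 12.79, and PSMB7 read 13.70, 13.70 and 13.81 against 13.83, 13.74 and 13.72. The controls and the sh-PRLR arrays overlapped in both, with changes of 0.061 (95% interval -0.054 to 0.18) for PSMB5 and 0.026 (-0.083 to 0.14) for PSMB7.

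Of the structural beta subunits PSMB3 was lower in every sh-PRLR array, at 13.37, 13.33 and 13.46 against 13.21, 13.32 and 13.32, and its change of -0.10 missed the threshold (limma adjusted p = 0.295). PSMB4 (0.065) and PSMB2 (-0.043) overlapped between groups. PSMB1 had the widest scatter of the core in both groups, reading 14.10, 14.33 and 14.44 against 14.38, 14.30 and 14.05. Its change of -0.048 had a 95% interval of -0.26 to 0.16, and the 2 other PSMB1 probe sets were above 0, at 0.043 and 0.033.

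The 19S cap had a median change of 0.021 over 14 genes, of which PSMD2 fell and 0 rose. Its mean was 12.30, 12.29 and 12.32 in the control arrays against 12.32, 12.30 and 12.29, so the arrays of the groups interleaved (12.30 ± 0.017 and 12.30 ± 0.019, SD, n = 3 arrays). The mean of the core minus the mean of the cap within an array, which no scaling of arrays can shift, moved by 0.00023, from 1.10 ± 0.039 to 1.10 ± 0.0094.

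PSMD2 encodes the large scaffold of the cap's base, on which ubiquitin receptors and shuttles dock. The sh-Ctrl arrays read 12.12, 12.06 and 12.03, and the sh-PRLR arrays 11.79, 11.88 and 11.85. The groups were clear of each other, and the change was -0.23 (SE 0.052, 95% interval -0.34 to -0.11; limma adjusted p = 0.0245). It rests on 1 probe set. With default variance the limma adjusted p was 0.219, and leaving out any one array gave changes from -0.25 to -0.20, with an adjusted p under 0.05 in 1 of the 6 cases, without sh-Ctrl replicate 3. The limma adjusted p was 0.136 with centring over genes, 0.180 with centring over all probe sets and 0.0606 with the replicate number as a block. PSMD1, the other large scaffold of the base, read 11.80, 11.98 and 11.88 against 11.68, 11.79 and 11.86. Its change of -0.11 did not pass (limma adjusted p = 0.416), and its second probe set gave -0.15. PSMD4, a ubiquitin receptor, had a change of 0.066, and its groups overlapped.

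In the ATPase ring 0 of 5 genes passed limma with either variance setting, and 0 had an unadjusted p under 0.05. PSMC1 read 12.69, 12.65 and 12.63 against 12.74, 12.77 and 12.73, a separation of the groups by a change of only 0.091 (limma adjusted p = 0.287). PSMC4 had a change of -0.14, with an interval of -0.31 to 0.038. PSMC2 (-0.019), PSMC3 (-0.054) and PSMC6 (0.012) stood closer to 0.

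The lid holds the deubiquitinase that strips ubiquitin from substrates, encoded by PSMD14. Its control arrays read 13.36, 13.41 and 13.44, and its sh-PRLR arrays 13.70, 13.57 and 13.50. All sh-PRLR arrays were higher, and the change of 0.18 (95% interval 0.059 to 0.31) did not pass over all genes (limma adjusted p = 0.0808). When the dimmest 40% of genes were dropped it passed, with fewer genes tested (limma adjusted p = 0.0468). PSMD8, a structural lid subunit, read 12.37, 12.40 and 12.44 against 12.58, 12.53 and 12.51, and its change of 0.14 did not pass either (limma adjusted p = 0.115). PSMD11 (0.042), PSMD6 (0.034), PSMD12 (0.029) and PSMD3 (-0.041) overlapped between groups. The second PSMD12 probe set gave -0.16.

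The mean of the 6 measured lid genes among the members was 12.48, 12.46 and 12.49 in the controls against 12.55, 12.54 and 12.53 after knockdown. The 3 non-ATPase base genes among the members averaged 12.20, 12.26 and 12.25 against 12.14, 12.15 and 12.15. Within each array the lid mean minus the base mean was 0.28, 0.20 and 0.24 in the controls against 0.42, 0.39 and 0.38, a change of 0.15 in which the groups did not overlap. SEM1, another lid subunit that is not among the 40 genes, was lower in every sh-PRLR array. With SEM1 counted in, the lid means overlapped between groups, at 12.48, 12.47 and 12.48 against 12.49, 12.52 and 12.47, and lid minus base went from 0.24 ± 0.038 to 0.35 ± 0.022 (SD, n = 3 arrays), a difference of 0.11 that still left the groups apart. This pair of groups was singled out after its values were seen and has no test, and the base mean leans on PSMD2. That mean also leaves out ADRM1, another non-ATPase base subunit that is not among the 40 genes. ADRM1 read 11.58, 11.70 and 11.79 against 11.76, 11.63 and 11.64, a change of -0.015 with overlapping groups. A base mean with ADRM1 counted in was not computed.

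**Figure D2:**
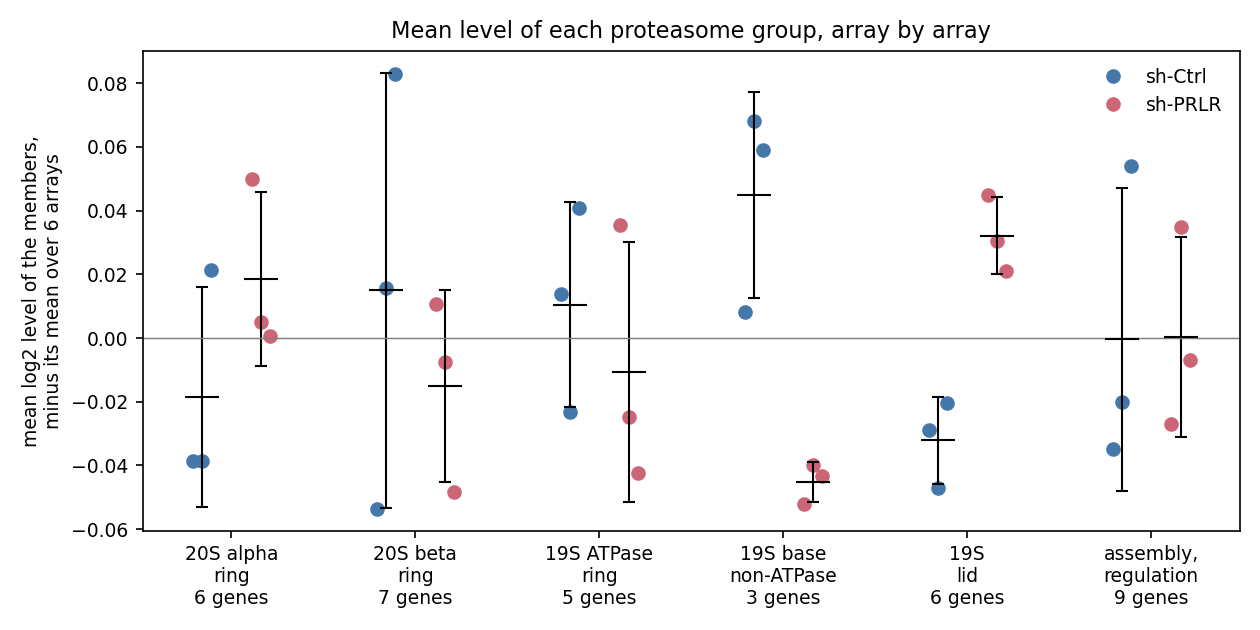
Mean log2 level of the genes in each proteasome group on each array, shown as the difference from that group's mean over the 6 arrays; blue points are sh-Ctrl, red points sh-PRLR, and bars give mean and SD over 3 arrays. All groups stay within 0.1 log2 units of their mean. The arrays of sh-Ctrl and sh-PRLR separate for the 3 non-ATPase base genes plotted, which leave out ADRM1. They also separate for the 6 lid genes plotted, which leave out SEM1, but overlap elsewhere.

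Among the factors that build the core, PSMG2, which pairs with PSMG1 as a chaperone of the alpha ring, rose. Its control arrays read 13.60, 13.56 and 13.67, and its sh-PRLR arrays 13.77, 13.78 and 13.79. The sh-PRLR arrays were tightly grouped above the controls, and the change was 0.17 (SE 0.043, 95% interval 0.071 to 0.26; limma adjusted p = 0.0412). It rests on 1 probe set, its adjusted p was 0.318 with limma's default variance, and with one array left out it passed in 1 of 6 cases, without sh-Ctrl replicate 3. The limma adjusted p was 0.0829 with centring over genes, 0.600 with centring over all probe sets, 0.0886 with the block and 0.0512 with probe sets averaged. Its partner PSMG1 went the other way without passing, at 13.30, 13.10 and 13.16 against 13.06, 13.04 and 13.07 (change -0.13, limma adjusted p = 0.213). The transcripts of the partners thus had changes of opposite sign. In each the groups did not overlap, which was so for 44.2% of the genes of similar signal. With one array left out the change of PSMG1 ran from -0.17 to -0.073.

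PSMG3 (-0.081) and PSMG4 (0.015), which form the second alpha-ring chaperone, overlapped between groups. POMP, the maturation factor that brings the beta subunits onto the alpha ring, read 13.96, 13.96 and 14.07 against 14.09, 14.06 and 14.05, a change of 0.070 (95% interval -0.025 to 0.17). The chaperones of the cap's ATPases, PSMD5 (-0.0032), PSMD9 (-0.091) and PSMD10 (0.043), did not separate the groups. PSMF1, which encodes the inhibitor PI31, had the widest spread in sh-PRLR, at 10.61, 11.04 and 11.05 against 10.84, 10.83 and 10.98 in sh-Ctrl, with a change of 0.016 (95% interval -0.23 to 0.26).

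Over all probe sets annotated with a single proteasome gene, 2 of 71 passed limma with adjustment over all 41091 such probe sets of the array, of which 4.67% passed. These were the single probe sets of PSMD2 and PSMG2. The 54 proteasome probe sets above the median gene level had changes between -0.25 and 0.18. The 17 below it scattered from -1.65 to 1.66, and 0 of those passed. Of 14 genes with more than 1 probe set above the median gene level, 10 had all of those probe sets on the same side of 0.

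**Figure D3:**
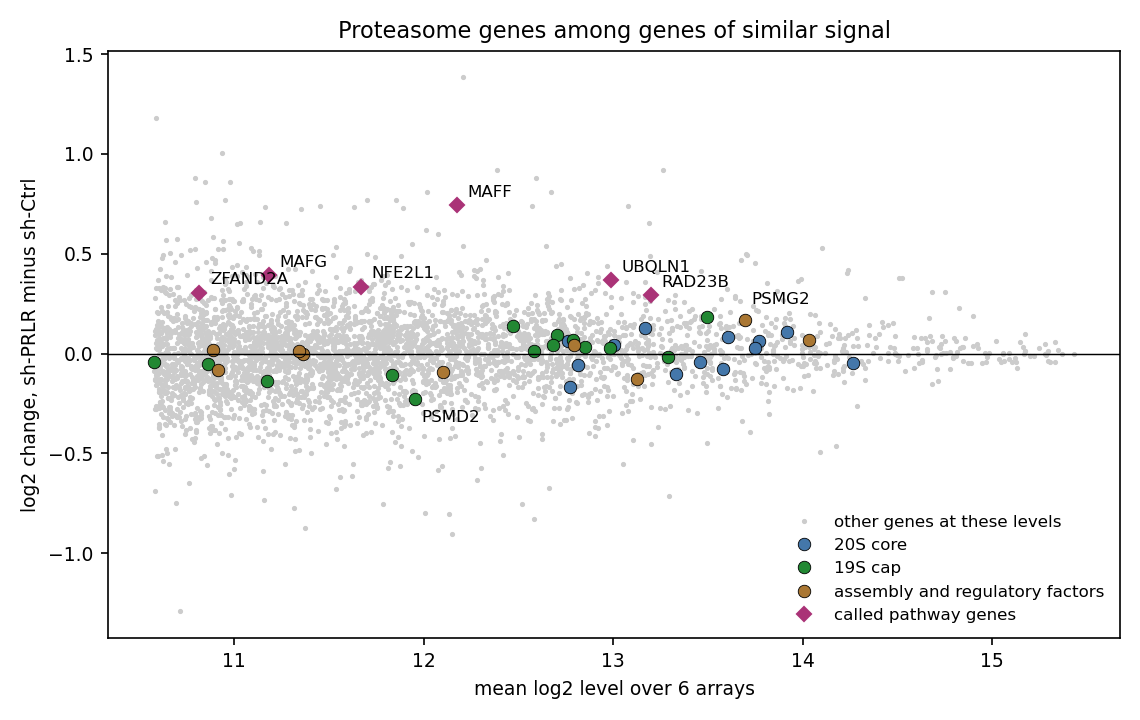
Mean log2 level over the 6 arrays (x axis) against the log2 change, sh-PRLR minus sh-Ctrl (y axis), for the 4090 genes at or above the level of the dimmest proteasome gene (grey), the 36 proteasome genes (circles) and the 6 pathway genes that passed (diamonds). Proteasome genes lie between -0.23 and 0.18, while MAFF lies at 0.74.

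Genes that act around the proteasome were examined next. Of 42 measured genes in 6 lists of proteasome variants, activators, bound proteins, transcription factors, ubiquitin genes and ubiquitin shuttles, 6 rose and 0 fell (14.3%), against 3.34% of all genes rising and 4.32% falling. Of the 42, 32 were at or above the level of the dimmest proteasome gene, and the 6 are 18.8% of those, against 19.3% of all genes at such levels that passed, 10.2% by rising. The count is thus close to the background of genes of similar signal, and its excess of rising genes was not tested. Each of the 6 had a larger change, 0.29 to 0.74, than any proteasome gene. With each array centred on its median over all probe sets, 1 of the 6 still passed, MAFF, and 0 passed with limma's default variance, where 10 of the 42 had an unadjusted p under 0.05.

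Of 8 measured genes of the NFE2L1 route, 3 rose (37.5%), against 3.34% of all genes and 10.2% of the genes of similar signal. The median change over the list was 0.28, against -0.0013 over all genes, and neither was tested for the list. NFE2L1 itself read 11.51, 11.47 and 11.53 in the controls against 11.92, 11.84 and 11.76, a change of 0.34 (95% interval 0.21 to 0.46; limma adjusted p = 0.00641). All 3 of its probe sets were higher, by 0.12 to 0.34, and 1 of them passed over all probe sets. With the probe sets of each gene averaged, NFE2L1 missed the threshold (limma adjusted p = 0.0518). MAFF, a small MAF protein gene that stress induces, read 11.70, 11.78 and 11.93 against 12.61, 12.52 and 12.52, a change of 0.74 (95% interval 0.60 to 0.89; limma adjusted p = 0.000162). Both of its probe sets passed. MAFG, another small MAF protein gene, rose from 10.99 ± 0.096 to 11.38 ± 0.079 (0.39; limma adjusted p = 0.00704), but its other probe set gave 0.049, and with both averaged it did not pass (limma adjusted p = 0.419).

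NFE2L2, which encodes NRF2, read 13.17, 13.09 and 13.13 against 13.25, 13.25 and 13.25. The sh-PRLR arrays were all higher, and the change of 0.12 did not pass (limma adjusted p = 0.119). NGLY1, the enzyme that removes sugars from the NFE2L1 product on its way to activity, was at 0.22 without passing (limma adjusted p = 0.0768). KEAP1, the adaptor that marks NRF2 for the proteasome, stood at -0.11 and BACH1, a repressor at the same elements, at 0.17, both without passing. DDI1, a relative of the protease gene DDI2, had a low mean signal of 4.29, below the median gene level, and the largest change of the list at 1.99 (95% interval 0.25 to 3.73), which did not pass (limma adjusted p = 0.177). DDI2 was not analysed here.

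Of 11 genes of ubiquitin shuttles and the p97 unfoldase, UBQLN1 and RAD23B rose (18.2%). Both encode shuttle proteins that bind ubiquitin chains and dock on the cap. Over all genes 7.66% passed, 3.34% by rising, and among the genes of similar signal 19.3% passed, 10.2% by rising. UBQLN1 read 12.85, 12.77 and 12.79 in the controls against 13.17, 13.18 and 13.17, a change of 0.37 (limma adjusted p = 0.000936), and its 2 other probe sets gave 0.12 each. RAD23B read 13.11, 12.97 and 13.09 against 13.22, 13.38 and 13.43, a change of 0.29 (limma adjusted p = 0.0175). Its 3 other probe sets were above 0, at 0.060 to 0.20, and it did not pass with _x_at and _s_at probe sets left out (0.12), with its probe sets averaged (0.17), nor without sh-Ctrl replicate 2, sh-PRLR replicate 2 or sh-PRLR replicate 3 (limma adjusted p of 0.0679 to 0.0900). VCP, which encodes p97, had a change of -0.081 without passing.

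Of 13 genes of other proteasome-bound proteins, ZFAND2A rose and 0 fell, which is 7.69%, against 7.66% over all genes. Among the genes of similar signal 19.3% passed, and all genes of this list but PAAF1 (9.97) were at such levels. ZFAND2A, an arsenite-inducible gene whose product binds the cap, read 10.63, 10.63 and 10.74 against 10.98, 11.02 and 10.91, a change of 0.30 (limma adjusted p = 0.0168). It did not pass without sh-Ctrl replicate 1 or 2 or sh-PRLR replicate 2 (limma adjusted p of 0.0697 to 0.0814). SEM1, the smallest subunit of the lid, was lower by -0.27 (limma adjusted p = 0.0534) and UCHL5, a deubiquitinase on the cap, by -0.19 (limma adjusted p = 0.0537), and neither passed. With quantile normalisation both passed (limma adjusted p of 0.0366 and 0.0390), as they did without the dimmest genes (0.0265 and 0.0290).

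The inducible subunits of the immunoproteasome, which replace the catalytic beta subunits in cells under interferon, were measured together with the testis subunit gene PSMA8, and 0 of the 4 passed limma (either variance setting; 0 had an unadjusted p under 0.05). PSMB8 read 8.91, 9.04 and 8.93 against 9.17, 9.06 and 9.05 (change 0.13), PSMB9 stood at 0.074 and PSMB10 at -0.29. Mean levels were low, at 7.42 for PSMB9, 8.02 for PSMB10 and 2.22 for PSMA8. The 95% intervals were wide, -0.42 to 0.57 for PSMB9 and -0.67 to 0.097 for PSMB10. Of the 4 intervals 0 lay within 1.2-fold. Of the activator genes PSME1 stood at 0.096, PSME4 at 0.020 and PSME3 at -0.20, and 0 of these 3 passed (limma with either variance setting; 1 of the 3 had an unadjusted p under 0.05 in both). The polyubiquitin gene UBB read 14.96, 14.97 and 15.04 against 14.96, 14.95 and 14.93, a change of -0.041 (95% interval -0.12 to 0.041), and UBA6, an E1 enzyme gene, stood at -0.0096.

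**Figure D4:**
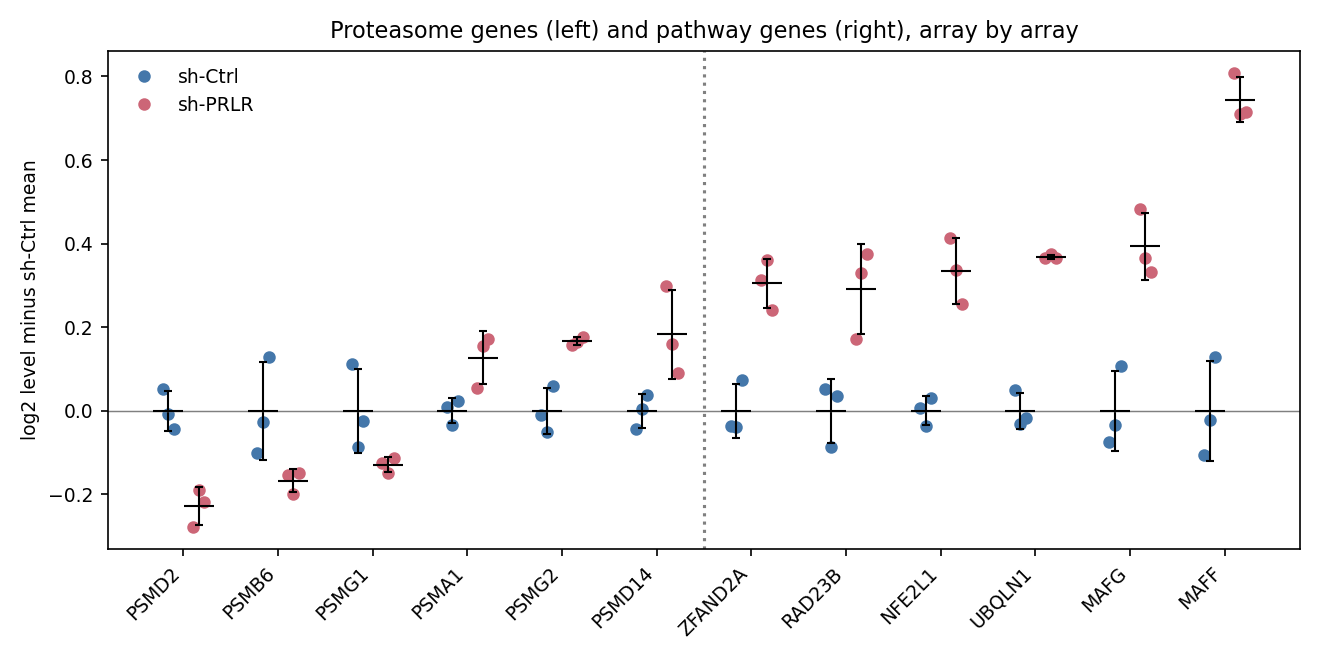
Log2 level on each array minus the mean of sh-Ctrl, for 6 proteasome genes (left of the dotted line) and the 6 pathway genes that passed (right); blue points are sh-Ctrl, red points sh-PRLR, and bars give mean and SD over 3 arrays. The proteasome genes stay within 0.3 of the control mean, and the red points of MAFF lie highest, with a mean of 0.74.

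Promoter sequence was searched for the antioxidant response element, the CCAAT box and the ETS core, as description only. RefSeq windows on GRCh38.p14, from 250 bases before to 50 after each listed start, were found for 34 of the 40 proteasome genes, in 42 windows. The core of the element, TGACNNNGC on either strand, was in 11 of the 42 windows (26.2%) and in 13.3% of all 35116 windows. The CCAAT box, CCAAT on either strand, was in 17 of 42 (40.5%) against 34.6%, and the ETS core CCGGAAG on either strand in 14 of 42 (33.3%) against 10.3%. Matches of different motifs overlapped at 0 places in the proteasome windows. Such a match is a string of letters and does not show binding.

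The stretches shown are those of the proteasome gene that rose, of 3 proteasome genes that did not pass, and of 2 pathway genes that rose, picked after their values were seen. Each is on the strand of the gene, ends before the start, and has the match in capitals.
PSMG2: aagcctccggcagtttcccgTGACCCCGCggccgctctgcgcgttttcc
PSMB3: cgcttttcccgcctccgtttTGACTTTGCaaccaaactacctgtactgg
PSMD12: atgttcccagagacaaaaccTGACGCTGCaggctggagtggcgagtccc
PSMG1: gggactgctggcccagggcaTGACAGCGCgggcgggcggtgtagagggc
UBQLN1: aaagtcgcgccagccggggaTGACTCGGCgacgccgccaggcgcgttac
MAFF: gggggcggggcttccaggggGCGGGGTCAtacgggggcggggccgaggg
They lie at chr18:12658679-12658727 (plus strand, before one of the listed starts of PSMG2), chr17:38752617-38752665 (plus, PSMB3), chr17:67366714-67366762 (minus, PSMD12), chr21:39183606-39183654 (minus, PSMG1), chr9:83708006-83708054 (minus, UBQLN1) and chr22:38201852-38201900 (plus, MAFF). In MAFF the match is on the opposite strand. The first base of the match is 39 bases before the start in PSMG2, 104 in PSMB3, 165 in PSMD12, 183 in PSMG1, 76 in UBQLN1 and 122 in MAFF.

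Genes with the same core of letters thus had changes of either sign, 0.17 in PSMG2, -0.10 in PSMB3, 0.029 in PSMD12 and -0.13 in PSMG1. The 10 measured proteasome genes with a match in a window had a median change of -0.066 (-0.14 to 0.17), and the 20 measured ones with a window and no match 0.042 (-0.23 to 0.18). PSMD2, which fell, had no match to TGACNNNGC in its windows.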

How the data were processed

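Gene expression was measured on 6 Affymetrix arrays, 3 per group. The authors deposited log2 signals for every probe set. Per the submitters' processing notes the tools were MAS5, RMA and affy, whose roles and versions are not stated. After trimming 2% at both ends, all arrays had a linear mean of 500, a common target of global scaling, and no further normalisation was applied. No detection call was used, and the sources used here give no genome build. Precision is limited by how few arrays there are.

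Of 54675 probe sets, 41091 had 1 gene symbol in the platform annotation, 1801 had several, and 62 were controls. The test was limma 3.58.1 under R 4.3.3 (lmFit, eBayes with trend and robust, two-sided, Benjamini-Hochberg over 19775 genes), without a block. The code was also run on simulated data, with planted changes larger than that of any proteasome gene. The spread of those data came from this same fit, so they cannot decide between the variance settings. Same-numbered arrays did not deviate together (correlations -0.024, 0.0044 and -0.012). Named are all members by their change, with values per array for members that passed and for the brightest, largest increase and largest decrease of the core, the cap and the other factors. Also named are up to 4 genes of each pathway list that passed, or its 2 brightest, PRLR, NFE2L1, NFE2L2 and DDI2; the genes named beyond these were chosen after their values were seen. Alternatives were default variance, quantile normalisation, median centring over genes or over all probe sets, a filter on dim genes, averaged probe sets, no _x_at or _s_at probe sets, a replicate block, each array left out, and limma's treat at 1.2-fold. The members, lists and tests were chosen with earlier results of these data known. Figures used Python 3.11.15 and matplotlib 3.10.9.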

Additional observations from a re-analysis of the deposited data

How the results depend on the processing

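The count of all genes called, 1514 (43.6% higher), was 4 with default variance, 990 with arrays centred on their median over genes (57.6% higher), 504 with centring over all probe sets, added after seeing the data (28.4% higher), 609 with averaged probe sets, 131 with treat, and 665 to 1322 with one array left out. Centring shifts sh-PRLR against sh-Ctrl by 0.047 upward over genes and by 0.034 downward over probe sets, which is larger than most medians given for the proteasome genes.

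Of the 2 proteasome genes called, 0 passed with default variance, either centring, the replicate block or treat, and 1 (0 of the assembly factors) with averaged probe sets; with one array left out 0 to 2 passed, 0 to 1 in the cap and 0 to 1 among the assembly factors. The cap count of 1 was 0 with default variance, either centring, the replicate block and treat, and 2 without dim genes; the count of the assembly factors was 0 in the same settings that gave 0 for the cap. The core had 0 in all 15 alternatives. The pathway count of 6 was 0 with default variance, 1 with centring over all probe sets, 3 with averaged probe sets and 1 with treat. Without _x_at and _s_at probe sets it was 3, but only 33 of the 42 genes were left. NFE2L1 and MAFG had no other probe sets and were not tested there. The count was 8 with quantile normalisation (6 higher, 2 lower) and 9 without dim genes (7 higher, 2 lower). It was 7 with the replicate block (6 higher, 1 lower) and 4 to 8 with one array left out. The genes called lower in these settings were SEM1 and UCHL5. The replicate block called 1090 genes in all, and the labels do not say whether same-numbered arrays belong together.

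The median change of all proteasome genes, 0.015, was 0.062 with centring over genes and -0.036 with averaged probe sets. For the cap, 0.021 became -0.0012 with quantile normalisation, 0.067 with centring over genes and -0.013 with centring over all probe sets. It was -0.047 with averaged probe sets, and -0.047 without _x_at and _s_at probe sets, which left 10 of the 14 cap genes. With one array left out it ran from -0.00076 to 0.034. For the assembly factors 0.015 became -0.081 with averaged probe sets. The sign of 22 of the 36 proteasome genes held in all alternatives, and 33 never passed. Some of the sign changes involved probe sets of low signal. Without _x_at and _s_at probe sets, one with a mean level of 2.71 stood for PSMD4, at -1.65. Averaging gave dim probe sets the weight of bright ones. It put PSMD5 at -0.63 and PSMA5 at -0.51, with second probe sets at mean levels of 2.96 and 5.03. Of the named genes that did not pass, PSMB1 was at 0.0090 with averaged probe sets, 0.033 without _x_at and _s_at probe sets and -0.14 to 0.049 with one array left out; UBB was at 0.0059 and UBA6 at 0.037 with centring over genes, PSME4 at -0.014 with centring over all probe sets, and with one array left out UBA6 ran from -0.067 to 0.098 and PSME4 from -0.044 to 0.12. The causes were not tested.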
